A study of Homo sapiens with 6 samples.

Results

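Epithelial-mesenchymal transition (EMT) is the change in which epithelial cells give up junctions between cells and take on the shape and matrix contacts of mesenchymal cells. It is run by a few transcription factors of the SNAI, ZEB and TWIST families, which repress epithelial genes through short E-box sequences in their promoters, and it is read out by mesenchymal genes such as VIM and FN1 and epithelial genes such as EPCAM and ESRP1. MicroRNAs of the miR-200 family repress ZEB1 and ZEB2 and are themselves repressed by the ZEB factors, so that epithelial and mesenchymal states are each held in place. The genes described here are these regulators and state markers, SNAI1, SNAI2, ZEB1, ZEB2, TWIST1, TWIST2, VIM, FN1, EPCAM and ESRP1, chosen by name. All 10 were found among the 57820 genes of the deposited tables, and 9 of them had enough counts to be tested.

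The study compared WT and ARID1A-KO AID-DIvA cells, of which 3 samples each were sequenced, numbered 3, 4 and 5 in each genotype. ARID1A is a subunit of the BAF chromatin remodeler. AID-DIvA cells derive from the osteosarcoma line U2OS and carry an inducible AsiSI nuclease in both genotypes, and all samples were untreated, so that the nuclease was not induced. The ARID1A-KO cells were made with Cas9 and grown as clones, with 2 guide RNAs against ARID1A described and no statement of whether they were used together. Which clone was sequenced, and whether the 3 ARID1A-KO samples share a clone, is not given in the sources used here, so the effect of the genotype and of the clone cannot be told apart. The labels name replicates but not separate cultures, and the p-values measure only the spread between these samples.

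The reverse-stranded counts on genes summed to between 54512105 and 84088708 per sample. ARID1A itself was at 166, 178 and 177 CPM (counts scaled to the size of the library) in WT replicates 3, 4 and 5 and at 25.1, 27.5 and 25.2 CPM in the ARID1A-KO samples (log2 fold change -2.74). Of all 19599 genes tested, 36.2% were called at an adjusted p under 0.05 with edgeR's quasi-likelihood test, 17.8% higher and 18.4% lower, and the CPM of the genotypes did not overlap for 49.5%. The median log2 fold change over all genes tested was 0.0066 and the median size of the change, without its sign, was 0.27. The counts for the genes described below are to be read against this broad background. These genes and the lists were chosen with earlier results of these data known. Their called shares therefore describe the chosen genes and are not a test of EMT genes as a group.

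The labelled osteosarcoma origin was checked against marker lists on the TPM scale, which corrects for gene length and library size. Of 8 osteoblast lineage markers, 5 reached a mean of 1 TPM over the 6 samples, led by COL1A1, and their summed level was 211 to 255 TPM in WT and 118 to 181 TPM in ARID1A-KO samples. The osteoblast lineage markers SP7, IBSP and BGLAP were near 0. Of 8 epithelial markers, 4 reached this mean, with sums of 645 to 740 TPM in WT and 440 to 495 TPM in ARID1A-KO samples that came mostly from the keratin genes KRT18 and KRT8, while KRT19, CLDN7 and GRHL2 were near 0. None of 6 leukocyte markers reached it, with sums of 2.21 to 2.91 TPM in WT and 1.63 to 2.0 TPM in ARID1A-KO samples. None of the 4 endothelial markers found did so either, with sums of 1.32 to 2.33 TPM in WT and 1.18 to 1.25 TPM in ARID1A-KO samples. In bulk RNA, fewer cells that express a gene and less RNA per cell cannot be told apart.

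Promoter sequences are shown for VIM and ZEB1, both of which rose in ARID1A-KO cells, because the stretches shown differ in E-box letters. Each is the stretch of 250 bases before a transcription start in RefSeq, read 5′ to 3′ on the plus strand in GRCh38.p14, with the E-box letters CANNTG in capitals. The VIM stretch lies at chr10:17227991-17228240 and holds no CANNTG. The ZEB1 stretch lies at chr10:31318167-31318416, before the first of 7 listed starts, and holds CATCTG at 234 and CAGGTG at 57 bases before the start. The difference depends on the start, since some other ZEB1 stretches, such as chr10:31318568-31318817, hold no CANNTG either.
VIM: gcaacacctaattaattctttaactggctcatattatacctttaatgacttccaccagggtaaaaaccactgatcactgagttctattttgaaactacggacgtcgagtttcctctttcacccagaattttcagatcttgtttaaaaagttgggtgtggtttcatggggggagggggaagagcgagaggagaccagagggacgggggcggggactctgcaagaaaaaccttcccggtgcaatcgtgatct
ZEB1: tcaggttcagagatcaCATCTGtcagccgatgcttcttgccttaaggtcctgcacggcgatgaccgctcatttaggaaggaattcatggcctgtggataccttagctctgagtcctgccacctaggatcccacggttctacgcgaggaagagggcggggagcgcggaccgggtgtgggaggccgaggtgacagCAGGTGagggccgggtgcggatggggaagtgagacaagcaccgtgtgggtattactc

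The motif CAGGTG, on either strand, is a particular spelling of CANNTG, so that every match to it also counts as a match to CANNTG. Promoters were listed for 5 of the 10 genes, 11 promoters in all, and CAGGTG occurred in 2 of them (18.2%), both at ZEB1, against 17.5% of the 35116 promoters in the table. CANNTG occurred in 5 of the 11 (45.5%), against 61.8% of all. Since 7 of the 11 promoters belong to ZEB1, they do not stand for separate genes. Counted per gene, 1 of 5 held CAGGTG (20.0%) and 2 of 5 held CANNTG (40.0%), against 20.6% and 66.7% of all genes. The promoters of ZEB2, FN1 and TWIST2 hold no CAGGTG, and that of ZEB2 holds a CACATG at 180 bases before its start. Among epithelial state genes with a listed promoter, 12 of 19 held CAGGTG (63.2%), against 20.6% of all genes in the table and 20.0% of the mesenchymal state genes. The letters are a description of the sequence and not of bound factors.

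The mature miR-200 sequences are shown because their seeds divide the family into groups with separate target sites. Capitals mark the seed, bases 2 to 8. The first group shares AACACUG and the second AAUACUG.
hsa-miR-141-3p: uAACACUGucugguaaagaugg
hsa-miR-200a-3p: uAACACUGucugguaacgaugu
hsa-miR-200b-3p: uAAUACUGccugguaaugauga
hsa-miR-200c-3p: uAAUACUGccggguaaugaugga
hsa-miR-429: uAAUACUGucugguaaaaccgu

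The gene rows of MIR141, MIR200A, MIR200B, MIR200C and MIR429 held 0 counts in all 6 samples, where a count of 0 allows up to 3 counts per library. The libraries were not made for small RNA, and the mature miRNAs themselves were not measured. ZEB1 and ZEB2, the known targets of the family, were both listed with counts in every sample.

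The levels of the 10 genes were compared on the TPM scale. In WT cells VIM stood first with a mean of 1556 TPM, followed by FN1 with 147, SNAI1 with 15.3, ZEB1 with 14.8, SNAI2 with 9.29, EPCAM with 6.72, TWIST2 with 3.99, ESRP1 with 0.338, ZEB2 with 0.0559 and TWIST1 with 0.0167 TPM. Of the neighbours in this order, SNAI1 and ZEB1 overlapped between samples, whereas each other pair of neighbours was kept apart by its samples. In ARID1A-KO cells ZEB1 (18.5 TPM) and SNAI1 (17.9 TPM) overlapped again and had changed places, EPCAM (9.08 TPM) stood above SNAI2 (7.21 TPM), and SNAI2 overlapped with TWIST2 (7.11 TPM). The intermediate filament gene VIM thus ranked 48th of all genes by mean TPM in WT and 25th in ARID1A-KO cells. ZEB1 was the abundant member of the ZEB pair and SNAI1 that of the SNAI pair in both genotypes.

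**Figure D1:**
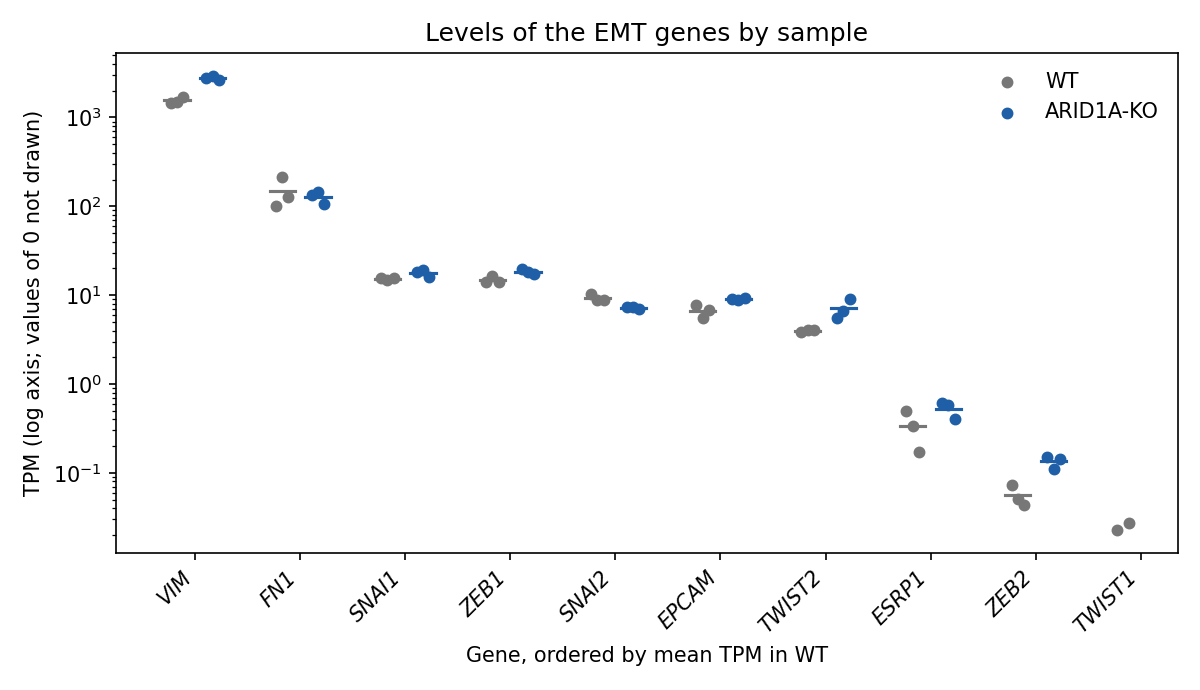
TPM of the 10 EMT genes on a log axis, with a point per sample, WT in grey and ARID1A-KO in blue, and a bar at the mean of 3 samples. VIM lies at 1556 and 2779 TPM, far above all others, the samples of the genotypes are apart for ZEB1, ZEB2, TWIST2, VIM, EPCAM, SNAI2 and SNAI1, and TWIST1 has only 2 WT samples above 0. On the CPM scale the genotypes were apart for 49.5% of all genes tested.

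Between genotypes, 6 of the 9 tested EMT genes were called, 5 higher and 1 lower in ARID1A-KO cells (66.7%, against 36.2% of all genes). ZEB2, VIM, TWIST2, EPCAM and ZEB1 rose, SNAI2 fell, and SNAI1, ESRP1 and FN1 did not pass the test. The rise therefore included the mesenchymal filament gene VIM and the epithelial adhesion gene EPCAM together. The median log2 fold change of the 9 genes was 0.44. The count of called genes rested on single samples and was 3 (33.3%) when ARID1A-KO replicate 3 or ARID1A-KO replicate 4 was left out, fits in which 28.5% and 26.2% of all genes were called, whereas VIM, ZEB2 and TWIST2 were called in every alternative fit.

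**Figure D2:**
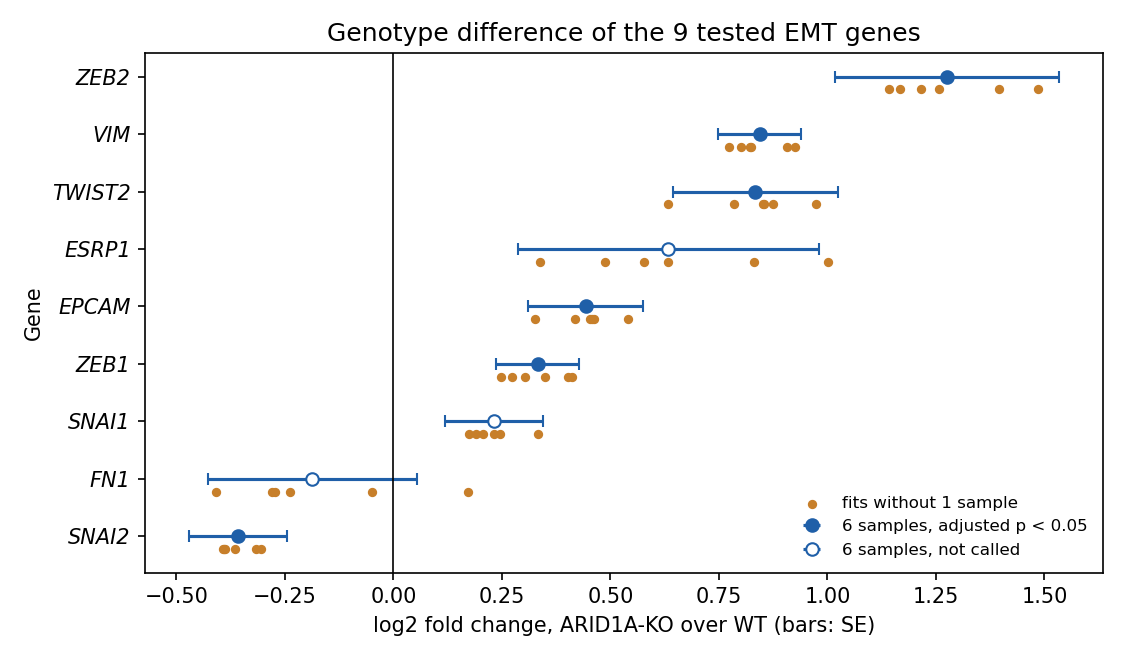
Log2 fold change of ARID1A-KO over WT for the 9 tested EMT genes from edgeR (large points, with SE bars; filled where the adjusted p is under 0.05) and with each sample left out in turn (small orange points). ZEB2 is at 1.28, VIM at 0.84 and TWIST2 at 0.83, SNAI2 alone among the called genes lies below 0 at -0.36, and FN1 crosses 0 when WT replicate 4 is left out.

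SNAI1 (ENSG00000124216.3, GRCh37 chromosome 20 from 48599536 to 48605423) encodes Snail, a zinc finger repressor of CDH1. It was at 7.97, 7.61 and 8.04 CPM in WT replicates 3, 4 and 5 and at 9.81, 10.03 and 7.94 CPM in ARID1A-KO replicates 3, 4 and 5. Replicate 5 of ARID1A-KO lay within the WT range, and the CPM overlapped, while the other ARID1A-KO samples lay above it. The log2 fold change of 0.23 (SE 0.11) was not called (adjusted p = 0.143, edgeR's quasi-likelihood test, Benjamini-Hochberg adjustment). Without ARID1A-KO replicate 5 it was 0.33 and called, with an adjusted p of 0.0326 from the same edgeR test.

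SNAI2 (ENSG00000019549.4, chromosome 8 from 49830249 to 49834299) encodes Slug, the close relative of Snail. Its level was 7.0, 6.18 and 6.17 CPM in the WT samples and 5.26, 5.09 and 4.75 CPM in the ARID1A-KO samples. Every ARID1A-KO sample was below every WT sample. SNAI2 fell by 0.36 on the log2 scale (SE 0.11, adjusted p = 0.0334, edgeR's quasi-likelihood test). The call was lost in 4 of the 6 fits without a sample, with adjusted p-values of 0.101 without WT replicate 3 and 0.0682, 0.0969 and 0.0763 without ARID1A-KO replicates 3, 4 and 5 in edgeR.

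The ratio of SNAI1 to SNAI2 in TPM was 1.54, 1.66 and 1.76 in WT and 2.53, 2.66 and 2.26 in ARID1A-KO replicates 3, 4 and 5. It did not overlap between genotypes (exact permutation test, two-sided p = 0.1, the smallest that 3 samples against 3 allow). The balance within the pair thus lay further toward SNAI1 in each ARID1A-KO sample.

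ZEB1 (ENSG00000148516.17, chromosome 10 from 31607424 to 31818742) encodes a zinc finger and homeodomain repressor of epithelial genes. WT replicates 3, 4 and 5 had 35.8, 42.6 and 37.1 CPM, and ARID1A-KO replicates 54.1, 47.5 and 43.8 CPM. The groups did not overlap, but the lowest ARID1A-KO sample stood close to the highest WT sample. ZEB1 rose by 0.33 on the log2 scale (SE 0.096, adjusted p = 0.0236, edgeR's quasi-likelihood test). It was not called without WT replicate 3 (0.0899), WT replicate 5 (0.0806), ARID1A-KO replicate 3 (0.0900) or ARID1A-KO replicate 4 (0.0561), all adjusted p-values from edgeR.

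ZEB1-AS1, the antisense RNA that starts head to head with ZEB1 and overlaps it over 1953 bp, rose as well. It had 15.3 ± 0.52 CPM in WT samples and 20.8 ± 1.04 CPM in ARID1A-KO samples (SD, n = 3), with 0.45 as its log2 fold change (SE 0.077, adjusted p = 0.00175, edgeR's quasi-likelihood test). Counting by strand keeps the overlapping genes apart.

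ZEB2 (ENSG00000169554.12, chromosome 2 from 145141648 to 145282147), the sister gene of ZEB1, was scarce. Its raw counts were 26, 20 and 14 in WT and 58, 33 and 67 in ARID1A-KO samples, or 0.39, 0.28 and 0.24 CPM against 0.85, 0.60 and 0.76 CPM. The groups did not overlap, but the nearest samples, WT replicate 3 and ARID1A-KO replicate 4, held 26 and 33 counts. The log2 fold change of 1.28 (SE 0.26, adjusted p = 0.00430, edgeR's quasi-likelihood test) was the largest of the 9 and was called in all 14 alternatives. The difference in level was nonetheless small, from 0.0559 to 0.135 TPM, and with 1 added to each TPM the log2 ratio was 0.10.

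The ratio of ZEB1 to ZEB2 in TPM was 277 ± 73.6 for WT and 140 ± 23.2 for ARID1A-KO samples (SD, n = 3; exact permutation test, p = 0.1). ZEB1 thus remained far above ZEB2. ZEB2-AS1, which overlaps ZEB2 over 3395 bp, held 1 to 6 counts per sample and was not tested.

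TWIST1 (ENSG00000122691.8, chromosome 7 from 19060614 to 19157295), a basic helix-loop-helix factor, had 0, 1 and 1 counts in the WT samples and 0 in all ARID1A-KO samples. Counts at or under the limit of 3 that a count of 0 allows give no fold change, and TWIST1 was not detectable above it at this depth.

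TWIST2 (ENSG00000233608.2, chromosome 2 from 239756673 to 239795893), the related factor also known as Dermo1, was the TWIST gene with counts in these cells. Its level was 1.35, 1.47 and 1.48 CPM in WT and 2.04, 2.40 and 3.18 CPM in ARID1A-KO replicates 3, 4 and 5. The WT samples were nearly equal, and the ARID1A-KO samples were all higher and more spread. TWIST2 rose by 0.83 on the log2 scale (SE 0.19, adjusted p = 0.00775, edgeR's quasi-likelihood test). Over the 14 alternatives it ran from 0.63 to 0.97 and was called each time.

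VIM (ENSG00000026025.9, chromosome 10 from 17270258 to 17279592) encodes vimentin, the intermediate filament protein of mesenchymal cells. It was at 2155, 2287 and 2620 CPM in the WT samples and at 4349, 4479 and 3846 CPM in the ARID1A-KO samples. The lowest ARID1A-KO sample was well above the highest WT sample. VIM rose by 1.79-fold, or 0.84 on the log2 scale (SE 0.096, adjusted p = 0.000171, edgeR's quasi-likelihood test), and ran from 0.76 to 0.92 over the 14 alternatives. Its share of all TPM went from 0.156% to 0.278%.

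The first 1727 bp of VIM overlap the antisense gene VIM-AS1. The VIM counts made without regard to strand came to only 42.0% to 49.4% of its reverse-stranded counts, and the log2 fold change on them was 0.76. VIM-AS1 had 8.15 ± 0.58 CPM in WT samples and 9.28 ± 0.19 CPM in ARID1A-KO samples (SD, n = 3), and its log2 fold change of 0.19 was not called (adjusted p = 0.161, edgeR's quasi-likelihood test).

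FN1 (ENSG00000115414.14, chromosome 2 from 216225163 to 216300895) encodes fibronectin, a matrix glycoprotein that is deposited by mesenchymal cells. Its WT samples differed by up to 2.12-fold among themselves, at 528, 1121 and 685 CPM in replicates 3, 4 and 5. The ARID1A-KO samples had 734, 770 and 548 CPM and lay inside the WT range. For FN1 the log2 fold change came to -0.19 (SE 0.24, adjusted p = 0.584, edgeR's quasi-likelihood test). Without WT replicate 4 it turned to 0.17, with an adjusted p of 0.427 from edgeR.

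The mesenchymal markers VIM and FN1 thus did not move alike. Their ratio in TPM was 14.2, 7.11 and 13.3 in WT and 20.7, 20.3 and 24.5 in ARID1A-KO replicates 3, 4 and 5 (exact permutation test, p = 0.1). Each ARID1A-KO sample held more VIM per FN1 than any WT sample.

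EPCAM (ENSG00000119888.6, chromosome 2 from 47572297 to 47614740) encodes an adhesion molecule of epithelial cells. It was at 5.88, 4.30 and 5.28 CPM in WT and at 7.26, 6.82 and 6.91 CPM in ARID1A-KO replicates 3, 4 and 5. The genotypes did not overlap and the ARID1A-KO samples were close to each other. EPCAM rose by 0.44 on the log2 scale (SE 0.13, adjusted p = 0.0274, edgeR's quasi-likelihood test). It lost its call without WT replicate 4 (0.0655), WT replicate 5 (0.0599), ARID1A-KO replicate 3 (0.0850) or ARID1A-KO replicate 4 (0.0686), all adjusted p-values from edgeR.

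VIM stayed far more abundant than EPCAM, with a ratio in TPM of 236 ± 44.2 for WT and 307 ± 25.4 for ARID1A-KO samples (SD, n = 3; exact permutation test, p = 0.1).

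ESRP1 (ENSG00000104413.11, chromosome 8 from 95653302 to 95719694) encodes an epithelial splicing regulator that sets the epithelial isoforms of other genes. It had 49, 36 and 15 counts in WT and 64, 47 and 51 counts in ARID1A-KO samples, or 0.73, 0.51 and 0.26 CPM against 0.94, 0.86 and 0.58 CPM. The WT samples differed by up to 2.85-fold, and the groups overlapped. The log2 fold change of 0.63 (SE 0.35, adjusted p = 0.184, edgeR's quasi-likelihood test) was not called. It was 1.0 without WT replicate 3 and 0.34 without WT replicate 5, and not called in either fit (adjusted p = 0.0703 and 0.429, edgeR). Its paralog ESRP2 was as scarce, at 0.42 ± 0.14 CPM in WT samples and 0.55 ± 0.025 CPM in ARID1A-KO samples (SD, n = 3), and was not called (log2 fold change 0.36, adjusted p = 0.336, edgeR's quasi-likelihood test). Counts per gene do not show which splice isoforms were made.

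On the TPM scale, the exact permutation test gave its smallest possible two-sided p of 0.1 for SNAI1, SNAI2, ZEB1, ZEB2, TWIST2, VIM and EPCAM. It gave 0.2 for ESRP1, 0.4 for TWIST1 and 0.9 for FN1. SNAI1 did not overlap on this scale, with 14.7 to 15.7 TPM in WT and 16.0 to 19.4 TPM in ARID1A-KO samples, although its CPM did. A p of 0.1 from this permutation test means only that the samples of the genotypes did not overlap. On the CPM scale this held for 49.5% of all genes tested, and the share on the TPM scale was not computed.

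The surroundings of the EMT genes were described by the other genes tested within 5 Mb of each. Their median log2 fold change ran from -0.14 (ESRP1) to 0.11 (ZEB2, from 9 genes), and was 0.011 for ZEB1 and -0.024 for VIM. Such a median does not show that each neighbour was still, and TNS1, within 5 Mb of FN1, had a log2 fold change of -1.46. With the neighbours' median taken off each gene, 6 of the 9 EMT genes (66.7%) were called, 5 higher and 1 lower, against 32.1% of all genes.

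The cadherins, the classic pair of EMT markers, both fell. CDH1, the epithelial E-cadherin, had 1.53, 0.86 and 1.37 CPM in WT and 0.53, 0.45 and 0.64 CPM in ARID1A-KO replicates 3, 4 and 5, or -1.19 on the log2 scale (SE 0.26, adjusted p = 0.00593, edgeR's quasi-likelihood test). The 142 other genes tested within 5 Mb of CDH1 had a median of 0.56, in the other direction. CDH2, the mesenchymal N-cadherin, went from 169 ± 11.1 to 103 ± 3.97 CPM (SD, n = 3), or -0.72 on the log2 scale (SE 0.067, adjusted p = 5.31e-05, edgeR's quasi-likelihood test). The ratio of CDH2 to CDH1 in TPM was 178 ± 53.4 for WT and 242 ± 49.0 for ARID1A-KO samples and overlapped (SD, n = 3; exact permutation test, p = 0.2).

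Partners and regulators of the EMT factors moved in both directions. Of 28 genes tested from this list of 30, 9 rose and 8 fell (60.7% called, against 36.2% of all genes), with a median log2 fold change of -0.074. PRRX1, a homeodomain factor of mesenchymal cells, rose by 0.86 on the log2 scale, from 12.4 ± 2.39 to 22.6 ± 0.93 CPM (SD, n = 3). The ligand TGFB3 rose by 0.84 on the log2 scale. The genes around TGFB3 had a median of 0.42. SMAD3, which carries the TGF-β signal to the nucleus, fell by 0.80, from 163 ± 26.8 to 93.6 ± 11.4 CPM (SD, n = 3), and SOX4 fell by 0.60. GSK3B, the kinase that marks Snail for degradation, fell by 0.66 where its neighbours had a median of -0.43. The ligand TGFB2 fell by 0.29 (adjusted p = 0.00433, edgeR's quasi-likelihood test). With the neighbours' median taken off, 11 of the 28 genes were called (39.3%, against 32.1% of all genes), 7 higher and 4 lower.

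Mesenchymal state genes were more often lower than higher. All 30 of this list were tested, 8 rose and 17 fell (83.3% called, against 36.2% of all genes), and their median log2 fold change was -0.49. The matrix genes COL5A1 (-1.83), FBN1 (-1.49) and LOX (-1.58), a collagen cross-linking enzyme, were among those that fell. COL5A1 went from 33.0 ± 6.0 to 9.32 ± 1.58 CPM (SD, n = 3). Higher were MMP14, a membrane-bound matrix protease, with 2.45 on the log2 scale, from 14.0 ± 1.84 to 76.7 ± 4.31 CPM (SD, n = 3), the surface enzyme NT5E with 1.52 and the calcium-binding protein gene S100A4 with 1.04. S100A4 was spread in ARID1A-KO cells, at 7.67 ± 4.50 CPM, and came close to the threshold (adjusted p = 0.0488, edgeR's quasi-likelihood test). VIM thus rose while most mesenchymal genes of this list fell.

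Epithelial state genes were mostly scarce, with 21 of 32 tested. Of these 3 rose and 7 fell (47.6% called, against 36.2% of all genes), with a median log2 fold change of -0.34. DSP, which encodes the desmosome protein desmoplakin, had the largest fall, -3.00 on the log2 scale (SE 0.25), from 9.47 ± 2.71 to 1.19 ± 0.27 CPM (SD, n = 3). MAL2, a gene of apical transport, had -1.44 and the keratin gene KRT8 -0.96. KRT8 was abundant, at 177 TPM in WT and 90.9 TPM in ARID1A-KO cells. OCLN, a tight junction gene, rose like EPCAM, by 0.30, from 36.6 ± 4.55 to 45.1 ± 0.17 CPM (SD, n = 3).

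Splicing and RNA binding genes linked to EMT, the group that ESRP1 belongs to by function, had 1 higher and 3 lower of 10 tested (40.0% called, against 36.2% of all genes) and a median log2 fold change of -0.19. QKI, a splicing regulator that is known to rise in EMT, went from 169 ± 7.08 to 56.4 ± 0.90 CPM (SD, n = 3), or -1.58 on the log2 scale, where the 45 other genes within 5 Mb had a median of -1.02. RBFOX2 had -0.42. HNRNPM had -0.35 among neighbours with a median of -0.28. PTBP1 had 0.21, near the threshold (adjusted p = 0.0475, edgeR's quasi-likelihood test), and in 10 of 14 alternatives no gene of the list was called higher.

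Fibronectin receptors and assembly genes, listed for FN1, had 2 higher and 3 lower of 10 tested (50.0% called, against 36.2% of all genes) and a median log2 fold change of 0.024. The integrin genes ITGA4 (0.46) and ITGA5 (0.31), whose products bind fibronectin, rose, and TNS1 (-1.46), which links fibrillar adhesions to actin, and FBN1 fell. FBN1 and ITGA5 also belong to the mesenchymal list. Without WT replicate 3, as without ARID1A-KO replicate 4, the list held 3 called genes (30.0%, against 28.1% and 26.2% of all genes). What part neighbouring genes had in any of these differences was not tested beyond the values given.

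**Figure D3:**
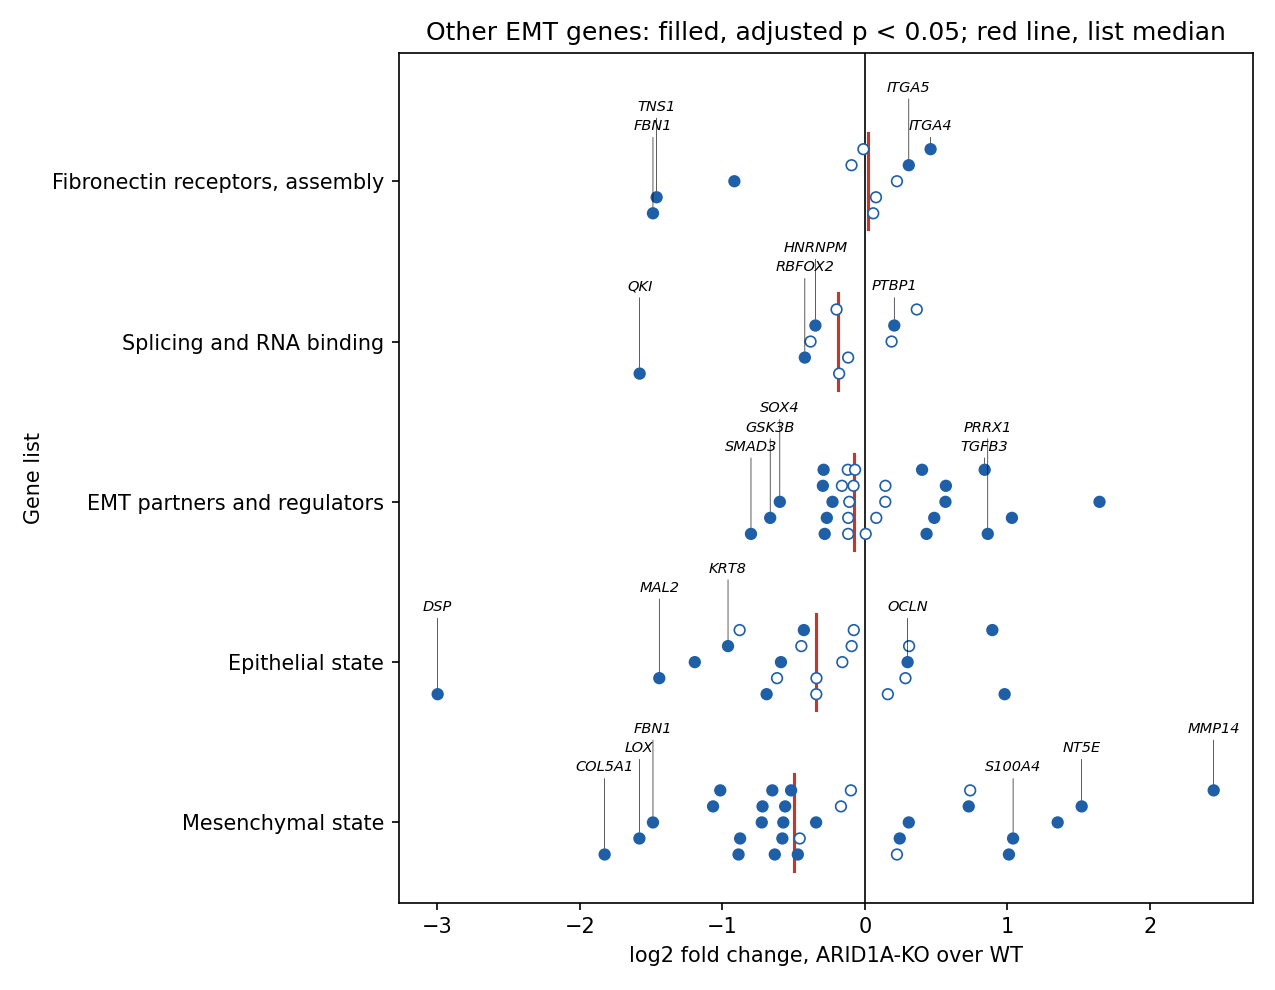
Log2 fold change of ARID1A-KO over WT for the tested genes of the 5 EMT-related lists, a point per gene, filled where the adjusted p from edgeR is under 0.05, with the list median as a red line and the genes described in the text named. The medians lie at -0.49 for mesenchymal state, -0.34 for epithelial state, -0.074 for partners and regulators, -0.19 for splicing and RNA binding and 0.024 for fibronectin genes, while MMP14 at 2.45 and DSP at -3.00 are the outermost points.

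For each EMT gene with a mean log2 CPM over 1, the most similar gene by the root mean square difference of centred log2 CPM over the 6 samples was sought among 87 candidates from the lists and the EMT genes themselves. The nearest were CELF1 to SNAI1 (0.060), SMAD4 to SNAI2 (0.069), ITGA5 to ZEB1 (0.10), TGFB3 to TWIST2 (0.18), PRRX1 to VIM (0.12), TGFBI to FN1 (0.14) and OCLN to EPCAM (0.091). The measure is a description over samples that share a genotype difference.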

How the data were processed

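Libraries of 3 WT and 3 ARID1A-KO samples were analysed. Per the study's methods, the authors used STAR, run in the Roddy workflow, for alignment to hg19/GRCh37. They deposited raw featureCounts counts for each gene and TPM values, of which the reverse-stranded column scaled over all genes was used. The unstranded TPM served as an alternative, and other TPM columns and the FPKM columns were not used. The methods name a total RNA kit and the labels polyA RNA. The reverse-stranded counts were used because forward-strand counts came to 5.83% to 6.15% of them. The common biological coefficient of variation was 0.111, and replicates of a genotype differed by more than sampling noise (chi-square per gene 6.95 to 33.4).

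After filterByExpr and TMM normalization, genotypes were compared with edgeR 4.0.16 (quasi-likelihood test, all 6 samples, no covariate, Benjamini-Hochberg adjustment over all genes tested) under R 4.3.3, and a gene with an adjusted p under 0.05 is called. TPM values and their ratios were compared with exact two-sided permutation tests in SciPy 1.17.1. CPM values use TMM-scaled library sizes. Neighbours are other tested genes within 5 Mb. The genes and lists were chosen with earlier results of these data known. Named are the 10 EMT genes, ARID1A, CDH1, CDH2, ESRP2, TGFB2, the antisense partners, and from each list up to 3 called genes each way with the largest change, if their CPM did not overlap and the mean log2 CPM was over 1. Some genes that this rule names are not reported here. As alternatives, RLE normalization, unstranded counts, DESeq2 1.42.0, other filters, the replicate number as a block, the neighbours' median as an offset, each sample left out and an adjusted p under 0.01 were tried. For TPM they were an added 1 or 0.1 on the log2 scale, unstranded TPM, a TPM of at least 1 and each sample left out.

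In a simulation over 19323 genes, of which 200 were changed, edgeR found 102 of the 116 genes changed by 2-fold or more and 42 of the 81 changed by 1.5-fold, with 24 false calls. In the data 36.2% of the genes tested were called, a far larger share than was changed in the simulation. The simulated rates therefore need not hold for the data. Gene positions are those of the tables (GRCh37). Promoters and miRNAs come from RefSeq on GRCh38.p14, and positions of the builds were not converted. Promoters were not listed for SNAI1, SNAI2, TWIST1, EPCAM and ESRP1.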

Additional observations from a re-analysis of the deposited data

Results flagged for a closer look

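Counts on the forward strand, which the comparisons do not use, were looked at in the rows of the 10 EMT genes and their antisense partners. They stood higher with ARID1A-KO in the rows of 3 genes, without overlap between genotypes. The share of all genes whose forward-strand counts did not overlap was not computed. For the reverse-stranded CPM it was 49.5% of the genes tested. As CPM of the reverse-stranded total, the ZEB1 row held 4.11 ± 0.17 in WT samples and 5.86 ± 0.24 in ARID1A-KO samples (SD, n = 3). The VIM row held 1.98 ± 0.044 in WT samples and 2.65 ± 0.39 in ARID1A-KO samples. By far the most stood in the row of VIM-AS1, which lies on the strand opposite to VIM, with 518 ± 76.7 in WT samples and 1129 ± 179 in ARID1A-KO samples, or 32109 to 107669 counts per sample. On the forward setting this row takes reads from the strand of VIM. The sources of the forward-strand reads were not tested.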

How the results depend on the processing

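Of the 9 tested EMT genes, ZEB2, TWIST2 and VIM kept their direction and their call in all 14 alternatives. An adjusted p under 0.01 left 4414 of all genes, 3 of the EMT genes (SNAI2 at -0.36, ZEB1 at 0.33 and EPCAM at 0.44 were no longer called), 11 of the partners and regulators and 3 of the fibronectin genes. With each sample left out, the EMT genes called ran from 3 to 6 and the fibronectin genes from 3 to 5. The log2 fold change then ran from 0.17 to 0.33 for SNAI1, from -0.39 to -0.30 for SNAI2, from 0.25 to 0.41 for ZEB1, from -0.41 to 0.17 for FN1, from 0.33 to 0.54 for EPCAM and from 0.34 to 1.0 for ESRP1. FN1 was at 0.17 without WT replicate 4, and the log2 ratio of its TPM ran from -0.40 to 0.16, with 0.16 without that sample. These fits have fewer samples. Without a filter SNAI2 was at -0.37 (adjusted p = 0.0539, edgeR), where more genes are tested. The neighbours' offset left 11 partners and regulators. The log2 ratio of TPM of ZEB2 was 0.10 with 1 and 0.59 with 0.1 added, by construction of the added value, and a TPM of at least 1 leaves out ZEB2, TWIST1 and ESRP1. With DESeq2 6884 and with unstranded counts 7213 of all genes were called.

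The labels do not say whether the replicate numbers pair the samples. Deviations of same-numbered samples from their genotype means correlated at -0.24, 0.49 and 0.32 for numbers 3, 4 and 5. Not every sample correlated best with its own number. Within a genotype the deviations of 3 samples cancel out, so these correlations cannot decide whether the numbers are pairs. The fit with the replicate number as a block called 7477 genes and 7 EMT genes, with ESRP1 at 0.70 (adjusted p = 0.0488, edgeR); the cause was not tested. Counting error limits ZEB2, ESRP1 and TWIST1, with at most 67 counts in a sample.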

Other observations

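WT replicate 4, the sample with the highest FN1, went both ways over the 37 tested genes of the mesenchymal and fibronectin lists, as the highest WT sample for 14 of them and the lowest for 14. The genes named here were picked after their values were seen. TGFBI, a TGF-β-induced matrix gene, was at 158, 264 and 219 CPM in WT replicates 3, 4 and 5 and at 204, 207 and 160 CPM in ARID1A-KO replicates 3, 4 and 5. TGM2, a transglutaminase that cross-links fibronectin, was at 102, 182 and 137 CPM in WT and at 142, 150 and 153 CPM in ARID1A-KO samples. For TGFBI and TGM2 WT replicate 3 was the lowest WT sample, as it was for FN1. WT replicate 4 was instead the lowest WT sample for other genes: COL3A1, a fibrillar collagen gene, was at 27.8, 13.5 and 28.4 CPM and LOX at 79.8, 63.5 and 82.1 CPM in WT replicates 3, 4 and 5. Neither TGFBI nor TGM2 was called between genotypes, with a log2 fold change of -0.17 for TGFBI and 0.08 for TGM2.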
